A study of Mus musculus with 4 samples.

Results

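The 10 genes described here are 7 matrix metalloproteinases (Mmp2, Mmp3, Mmp9, Mmp10, Mmp13, Mmp14 and Mmp15) and 3 tissue inhibitors of metalloproteinases (Timp1, Timp2 and Timp3). They were taken from the 34721 entries of the expression table by name, through the GENCODE M21 annotation. The choice of genes was made with earlier results of these data known. The genes were read in 4 mouse oral cancer cell lines, each sequenced as 1 library. AOC3 and AOC3-LN were derived from 1 mouse, and a second mouse gave AOC11 and AOC11-LN. AOC3 and AOC11 came from the primary tumor of the oral cavity, and the LN lines from a lymph node metastasis of the same animal. All 4 lines go back to male C57BL/6 mice whose buccal mucosa was painted with the carcinogen DMBA until a tumor was overt, and no untreated oral epithelium was compared. They are lines that grew again when transplanted into C57BL/6 mice, they were passaged as flank tumors from which fibroblasts were removed before the lines were set up, and each stands for a single tumor, so any difference below is between these lines and not between mice or sites in general.

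Matrix metalloproteinases are zinc-dependent enzymes that cut collagens, laminins and other proteins outside the cell. Most are secreted as inactive proenzymes, while the membrane-type members such as Mmp14 and Mmp15 are anchored in the cell surface. TIMPs bind the active site and block it, and Timp2 also bridges the Mmp2 proenzyme to Mmp14 on the cell surface, where it is activated. In carcinomas of the oral cavity the family is known for breakdown of the basement membrane at the invading edge, with much of the enzyme often made by stromal cells.

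The values are FPKM, the fragments of a gene scaled to its transcript length and to the library, so that levels of different genes in a line can be set side by side. The low values of genes with 1 transcript gave an estimate of 28220000 to 33740000 fragments behind each library. All 8 epithelial marker genes (such as Epcam, Cdh1 and Krt8) reached 1 FPKM in every line, with sums of 2991 to 3742 FPKM. Of 10 fibroblast markers only Postn reached 1 FPKM, in AOC11-LN, and Col1a1 was at most 0.407 FPKM. Summed fibroblast markers were 0.305 FPKM in AOC3 and 0.330 in AOC3-LN, against 1.30 in AOC11 and 4.76 in AOC11-LN. Macrophage markers summed to 16.8 to 33.8 FPKM, from Cd68, Cd14 and Csf1r, while Adgre1, C1qa and C1qb were listed at 0 in all 4 lines. Neutrophil markers summed to at most 2.87 FPKM, T cell markers to at most 0.0911 and endothelial markers to at most 0.392.

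The genes Mmp3, Mmp10 and Mmp13 stand in the cluster of metalloproteinase genes on chromosome 9. AP-1, the Fos and Jun dimer, is known to bind the letters TGANTCA (N is any base) just upstream of such genes. The 100 bases before the RefSeq start of these genes (GRCm38.p6, plus strand) are shown with a match to this motif in capitals, beside the same stretch of Mmp14 and Timp1, which were expressed at higher levels and hold no match in it. The stretches are chr9:7445722-7445821 for Mmp3, chr9:7502242-7502341 for Mmp10, chr9:7272414-7272513 for Mmp13, chr14:54431498-54431597 for Mmp14 and chrX:20870066-20870165 for Timp1.
Mmp3: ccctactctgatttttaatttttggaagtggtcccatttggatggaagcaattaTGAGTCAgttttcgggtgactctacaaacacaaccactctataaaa
Mmp10: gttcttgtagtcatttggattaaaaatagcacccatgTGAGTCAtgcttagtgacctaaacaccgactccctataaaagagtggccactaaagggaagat
Mmp13: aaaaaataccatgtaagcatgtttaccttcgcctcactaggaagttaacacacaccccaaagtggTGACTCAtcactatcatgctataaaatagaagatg
Mmp14: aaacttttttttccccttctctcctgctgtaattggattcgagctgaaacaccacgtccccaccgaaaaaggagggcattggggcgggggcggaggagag
Timp1: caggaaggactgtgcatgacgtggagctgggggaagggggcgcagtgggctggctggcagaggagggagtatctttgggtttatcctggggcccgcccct
The motif began 46 bases before the start in Mmp3, 63 in Mmp10 and 35 in Mmp13. In windows of 300 bases (250 before to 50 after the start), searched on both strands of a motif that reads the same on each, it was present in 3 of the 8 genes matched to a window, namely these 3, and in 5 of 14 other family genes. Of all 32851 windows, 7.81% held it. That share is per window, whereas a gene was counted if any of its windows held the motif. Mmp7 and Mmp12 each had a window with it and another without. Mmp2 and Mmp9 had no window. The windows of Mmp3, Mmp10 and Mmp13 held 37.7% to 43.7% G and C and 1 or 2 CpG dinucleotides, against a median of 52.7% and 7 over all windows, while those of Mmp15, Timp2 and Timp3 held 66.0% to 68.7% and 22 to 25. Those of Mmp14 (56% and 10) and Timp1 (55% and 8) were close to the median. A match is a description of the letters and not of binding, and its relation to the level of a gene was not tested.

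Over the 4 lines the 10 genes covered more than 3 orders of magnitude. Mmp14, Timp1 and Timp2 were the abundant ones, Mmp9 and Mmp10 were intermediate, Mmp15 reached 1 FPKM in AOC11-LN alone, and Mmp2, Mmp3, Mmp13 and Timp3 stayed under 1 FPKM in every line, with a highest value of 0.657. Thus 6 of the 10 passed the filter of 1 FPKM in at least 1 line, which 14165 entries of the table passed.

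**Figure D1:**
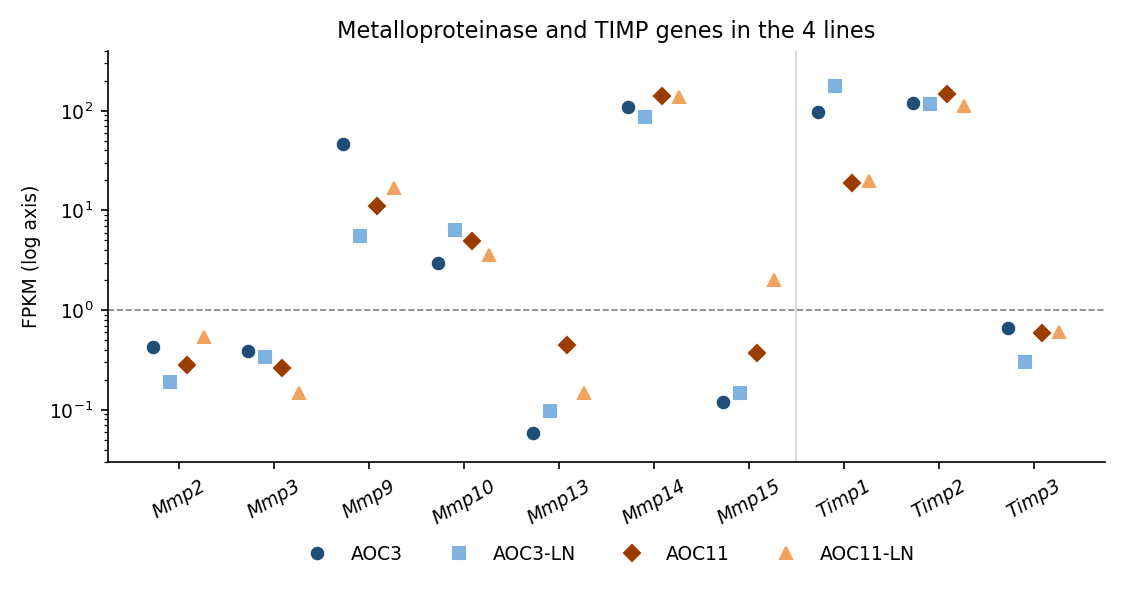
FPKM of the 10 genes in each of the 4 lines, on a log axis, with 1 point per library and the dashed line at 1 FPKM. Mmp14 and Timp2 lie between 86.1 and 147 FPKM in every line, Timp1 separates the lines of the 2 mice, and Mmp2, Mmp3, Mmp13 and Timp3 lie below the dashed line.

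Of the membrane-type enzymes, Mmp14 (chr14:54431612-54445364, plus strand, mm10), the activator of the Mmp2 proenzyme and a collagenase in its own right, was at 109 FPKM in AOC3 and 86.1 in AOC3-LN, against 141 in AOC11 and 137 in AOC11-LN. Both AOC11 lines were above both AOC3 lines. In RNA from whole cultures, fewer cells with a transcript and less of it per cell cannot be told apart. Its rank among the 14165 expressed genes was between 720 and 1228. The second, Mmp15 (chr8:95352268-95375080, plus strand), was at 0.119 FPKM in AOC3 and 0.149 in AOC3-LN, against 0.370 in AOC11 and 2.02 in AOC11-LN. The AOC11-LN value was 5.47-fold that of AOC11 and 13.6-fold that of AOC3-LN, and it rests on roughly 326 fragments if all came from the longest transcript, against 20 to 62 in the other lines. In AOC11-LN the fibroblast marker Postn was also higher, at 3.54 FPKM against 0.757 in AOC11, and its part in the Mmp15 level was not tested.

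The gelatinases Mmp2 and Mmp9 cut denatured collagen and type IV collagen of the basement membrane. Mmp9 (chr2:164940780-164955850, plus strand) was at 46.8 FPKM in AOC3 and 5.60 in AOC3-LN, against 11.1 in AOC11 and 16.9 in AOC11-LN. AOC3 was the highest and AOC3-LN, from the same mouse, the lowest, so that the AOC11 lines lay between them. The 2 primary lines differed 4.22-fold with AOC3 higher, and the 2 lymph node lines 3.01-fold with AOC3-LN lower. Neutrophils and macrophages are known sources of Mmp9: the neutrophil markers summed to 1.45, 1.87, 2.87 and 1.33 FPKM in AOC3, AOC3-LN, AOC11 and AOC11-LN, with Elane listed at 0 in every line, and the macrophage markers to 21.5, 18.7, 33.8 and 16.8. Mmp2 (chr8:92827291-92853420, plus strand), in tumors largely a product of fibroblasts, was at 0.425, 0.189, 0.281 and 0.532 FPKM in the same order, and the lines of the 2 mice overlapped.

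The stromelysins Mmp3 and Mmp10 cut proteoglycans, laminin and fibronectin and activate other proenzymes, and Mmp13 is a fibrillar collagenase. Mmp10 (chr9:7502352-7510240, plus strand) was at 2.97 FPKM in AOC3 and 6.32 in AOC3-LN, against 4.93 in AOC11 and 3.55 in AOC11-LN. Its order put the lymph node line above the primary line in the first mouse and below it in the second. It has 1 annotated transcript, which gave 156, 279, 256 and 179 fragments. The exact Poisson 95% intervals, which cover counting error only, ran from 2.53 to 3.48 FPKM in AOC3, 5.60 to 7.10 in AOC3-LN, 4.34 to 5.57 in AOC11 and 3.05 to 4.11 in AOC11-LN. By counting error alone AOC3-LN was above AOC11, and AOC11 was above both AOC3 and AOC11-LN, whose intervals overlapped.

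Mmp3 (chr9:7445822-7455975, plus strand) was at 0.392, 0.336, 0.262 and 0.147 FPKM in AOC3, AOC3-LN, AOC11 and AOC11-LN, from 22, 16, 14 and 8 fragments. The lowest interval, 0.0634 to 0.289 FPKM in AOC11-LN, overlapped the highest, 0.246 to 0.594 in AOC3. Overlap of intervals is not a test of a difference, and none was run between these lines. The transcripts of Mmp3 and Mmp10 share an identical stretch of 104 bases, so fragments could be divided between them, and the low Mmp3 values are uncertain for that reason too. Mmp13 (chr9:7272514-7283331, plus strand) was at 0.0591, 0.0981, 0.451 and 0.147 FPKM, from 5, 7, 38 and 12 fragments. The interval of AOC11, 0.319 to 0.619 FPKM, lay above those of the other 3 lines, which reached at most 0.257.

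The stretch of the chromosome 9 cluster from Mmp13 to Mmp20 covers 402 kilobases and has 9 metalloproteinase genes with an entry. Mmp7 lies beyond Mmp20, and its level was not analysed here. Mmp10 was the one at or above 1 FPKM, in all 4 lines, and the other 8 were at most 0.451. The genes nearest to Mmp10 by position were Mmp1a, at most 0.0570 FPKM, and Mmp8, listed at 0 in every line, as was Mmp20 at the end of this stretch. Mmp12 and Mmp1b overlap each other there and were at most 0.119 and 0.218 FPKM. Mmp1a and Mmp1b also share identical stretches of 50 bases. Mmp3 and Mmp13, both under 1 FPKM, hold the AP-1 letters upstream as Mmp10 does, and the part of these letters in the levels was not tested.

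**Figure D2:**
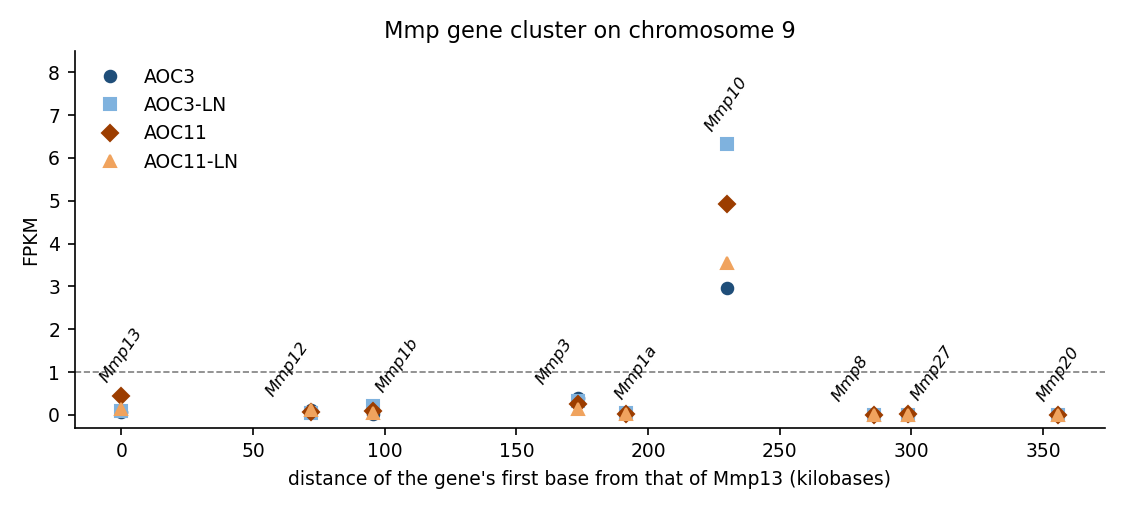
FPKM in the 4 lines of 9 metalloproteinase genes of the chromosome 9 cluster, from Mmp13 to Mmp20, placed by the distance of each gene's first base from that of Mmp13 in kilobases, with 1 point per library and the dashed line at 1 FPKM. Mmp10, at 2.97 to 6.32 FPKM, is above the dashed line and the other 8 are below it.

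Among the inhibitors, Timp1 (chrX:20870166-20874735, plus strand), a secreted inhibitor that binds the Mmp9 proenzyme, was at 96.8 FPKM in AOC3 and 178 in AOC3-LN, against 18.7 in AOC11 and 19.9 in AOC11-LN. Both AOC3 lines were far above both AOC11 lines, by 5.18-fold between the primary lines and by 8.94-fold between the lymph node lines. AOC3-LN was also 1.84-fold above AOC3, whereas AOC11-LN was 1.06-fold AOC11. Among the 14165 expressed genes Timp1 ranked 1058 and 588 in the AOC3 lines and 5206 and 4949 in the AOC11 lines. The gene lies within the Syn1 locus on the opposite strand without overlap of exons, and Syn1 was at most 0.196 FPKM. The basal keratin Krt5 also separated the mice, at 499 and 275 FPKM in AOC3 and AOC3-LN and 4.99 and 17.0 in AOC11 and AOC11-LN. Krt14, another basal keratin, went the other way, at 166 and 150 FPKM against 257 and 259 in the same order. The part of either keratin in the Timp1 difference was not tested.

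Timp2 (chr11:118301069-118355740, minus strand), the partner of Mmp14, was at 121 FPKM in AOC3 and 117 in AOC3-LN, against 147 in AOC11 and 111 in AOC11-LN. The lines of the 2 mice overlapped, and its rank lay between 694 and 968. Cep295nl, which overlaps Timp2 on the same strand without sharing exons, was at most 1.56 FPKM. Timp3 (chr10:86300372-86349506, plus strand), the inhibitor that is held in the matrix and also blocks ADAM proteases, was at 0.657, 0.301, 0.592 and 0.604 FPKM in AOC3, AOC3-LN, AOC11 and AOC11-LN. Its exons overlap those of Syn3 on the opposite strand, which was at 0.0309 to 0.440 FPKM, and how the counting used strand is not given in the sources used here.

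The first comparison asked how the lines of the 2 mice differed. FPKM plus 1 was log2-transformed and quantile-normalized, and a gene was past the fold threshold where its log2 difference exceeded 1 in either direction. Of the 6 genes that passed the filter, 1 was past the threshold, Timp1, higher in the AOC3 lines. Over all 14165 genes 11.1% were past it, 5.10% higher in the AOC3 lines and 6.00% lower. Timp1 had a mean log2 level of 7.05 ± 0.57 (SD, n = 2) in the AOC3 lines and 4.30 ± 0.07 (SD, n = 2) in the AOC11 lines, a difference of 2.75 with a 95% interval of 1.98 to 3.52, and 70 genes had a larger difference in that direction. In limma with Benjamini-Hochberg adjustment over all genes its adjusted p was 0.0636 (unadjusted p = 0.000258), short of 0.05, where the 2 lines of each mouse were treated as its replicates. Its adjusted p ranged from 0.0199 to 0.366 over the other settings, and was 0.0199 with protein-coding genes only and 0.0455 with genes at 5 FPKM or more.

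None of the 6 genes was called by limma, and 1 had an unadjusted p under 0.05. Over all genes limma called 29, or 0.205%, and 18.7% had an unadjusted p under 0.05. Mmp14 had a log2 difference of -0.47 (95% interval -0.96 to 0.03, limma adjusted p = 0.287) and Mmp15 one of -0.79 (-1.81 to 0.22, adjusted p = 0.354), both lower in the AOC3 lines. Mmp9 had a difference of 0.36 with an interval of -2.01 to 2.74, Mmp10 of 0.14 (-0.94 to 1.22) and Timp2 of -0.07 (-0.61 to 0.47), and their limma adjusted p-values were 0.853, 0.874 and 0.874. The Mmp9 mean hid opposite log2 differences at the 2 sites, 2.05 between the primary lines and -1.32 between the lymph node lines. Leaving out AOC3 gave -1.04 and leaving out AOC3-LN gave 1.77. Mmp15 came to -1.24 without AOC11 and -2.04 with a pseudocount of 0.1. FPKM values did not overlap between the lines of the 2 mice for 3 of these 6 genes (Mmp14, Mmp15 and Timp1), as for 53.0% of the 14165 expressed genes, so this count is near the background. The same held for Mmp3 and Mmp13 below the filter.

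The second comparison set each lymph node line against the primary line of its mouse, with 1 library on each side and no test. In AOC3-LN against AOC3, 1 of the 6 genes was past the threshold, Mmp9, lower by 8.36-fold in FPKM, a log2 difference of -2.81. Of all genes 5.53% were past it, 2.11% higher in AOC3-LN and 3.42% lower, and 61 genes had a larger difference in the same direction as Mmp9. Mmp10 stood at the threshold itself, with a log2 difference of 0.997, and was 1.20 with a pseudocount of 0.1. Timp1 was 0.80 higher, Mmp14 had a difference of -0.37, Timp2 of -0.08 and Mmp15 of 0.07.

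In AOC11-LN against AOC11, 0 of the 6 genes were past the threshold, against 8.11% of all genes, 4.97% higher in AOC11-LN and 3.14% lower. Mmp15 was 5.47-fold higher in FPKM, with a log2 difference of 0.90 after adding 1 and quantile normalization. That difference was 1.14 without quantile normalization, 1.13 with scaling to a common median and 1.71 with a pseudocount of 0.1. Mmp9 had a difference of 0.57, Mmp10 of -0.51, Timp2 of -0.45, Timp1 of 0.10 and Mmp14 of -0.09. Mmp9 and Mmp10 thus had opposite signs in the 2 mice, and the 2 genes had opposite signs to each other within each mouse.

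**Figure D3:**
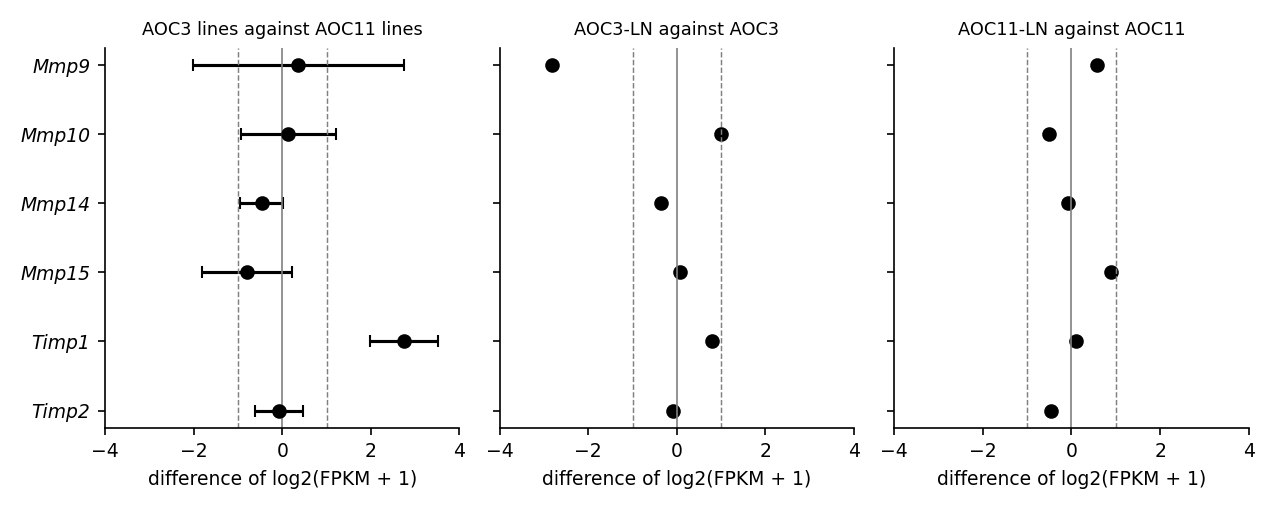
Differences of log2(FPKM + 1) after quantile normalization for the 6 genes that passed the filter, in the 3 comparisons, with dashed lines at the fold threshold of 1 in either direction. Bars in the left panel are limma 95% intervals with 2 lines per mouse, and the other panels compare single libraries without a bar. Timp1 is past the threshold in the left panel, at 2.75, and Mmp9 in the middle panel, at -2.81.

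The balance of inhibitor and enzyme transcripts followed from these values. The 7 metalloproteinases summed to 159.9 FPKM in AOC3 and 98.8 in AOC3-LN, against 158 in AOC11 and 161 in AOC11-LN, and the 3 inhibitors to 218, 295, 166 and 131. The ratio of inhibitors to enzymes was 1.36 in AOC3 and 2.98 in AOC3-LN, against 1.05 in AOC11 and 0.817 in AOC11-LN. AOC3-LN had the highest inhibitor sum and the lowest enzyme sum of the 4 lines. Mmp14 made up 68.2% of the enzyme sum in AOC3 and 85.5% to 89.0% in the other lines, and Mmp9 made up 29.3% in AOC3 and 5.67% to 10.5% in the others.

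Timp1 was 44.4% of the inhibitor sum in AOC3 and 60.3% in AOC3-LN, against 11.2% in AOC11 and 15.2% in AOC11-LN, and Timp2 made up nearly all the rest. Timp1 exceeded Timp2 in AOC3-LN alone. The Timp1 to Mmp9 ratio was 31.7 in AOC3-LN and 2.07, 1.68 and 1.18 in AOC3, AOC11 and AOC11-LN. The Timp2 to Mmp14 ratio was 1.10 in AOC3 and 1.35 in AOC3-LN, against 1.04 in AOC11 and 0.806 in AOC11-LN. These are ratios of transcript levels, and protein and enzyme activity were not measured in these data.

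**Figure D4:**
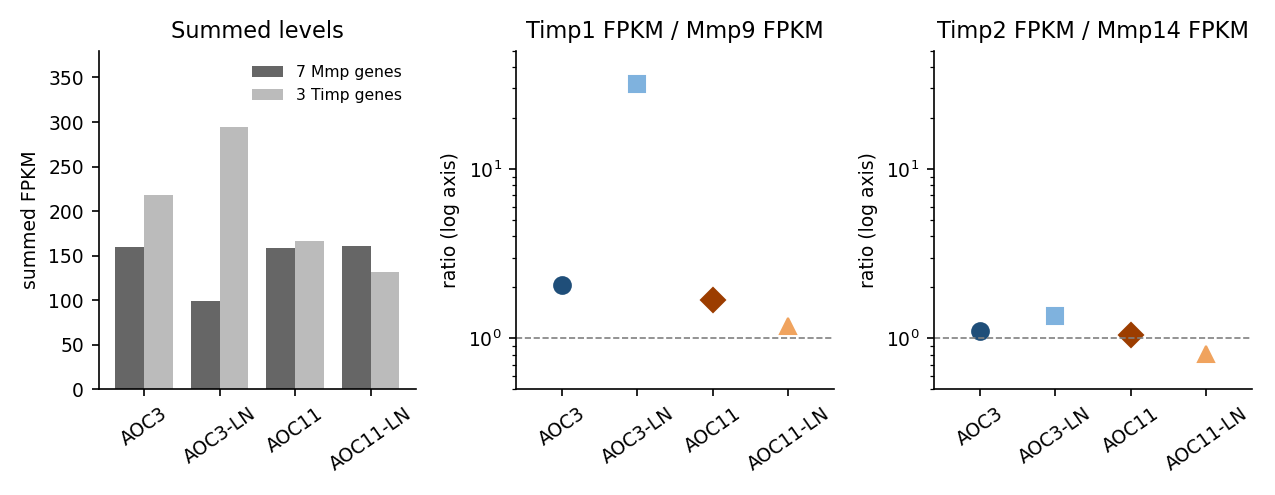
Left, summed FPKM of the 7 metalloproteinase genes and the 3 TIMP genes in each line. Middle and right, the ratio of Timp1 to Mmp9 FPKM and of Timp2 to Mmp14 FPKM on log axes, with 1 point per library and the dashed line at equal levels. The Timp1 to Mmp9 ratio of AOC3-LN, 31.7, stands apart from the other lines at 1.18 to 2.07, whereas the Timp2 to Mmp14 ratios lie between 0.806 and 1.35.

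Of the other family genes, 16 of 17 had an entry and 2 passed the filter. Mmp11, a stromelysin better known from stromal cells, was at 13.0, 6.12, 8.48 and 13.1 FPKM in AOC3, AOC3-LN, AOC11 and AOC11-LN, and 0 of the 3 comparisons took it past the threshold. Mmp24, a membrane-type enzyme, was at 0.558, 1.86, 0.401 and 0.341 FPKM, and its difference of 1.01 between AOC3-LN and AOC3 was just past the threshold. Timp4 was at most 0.00192 FPKM.

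Of 36 activators, partners and clearance receptors of metalloproteinases, 24 passed the filter. Between the mice 5 of the 24 were past the threshold higher in the AOC3 lines and 1 lower, where the shares over all genes were 5.10% and 6.00%. Their median log2 difference was 0.21, against 0.01 over all genes. The higher ones were the serine proteases Klk8 (6.20), Klk6 (2.45) and Plat (1.68), the lysosomal protease Ctsl (1.30) and Serpine2 (3.15), an inhibitor of plasminogen activators and thrombin. limma called 1 of the 24, Klk8, with an adjusted p of 0.0265, and the adjusted p of Serpine2 was 0.0653. Serpine2 was at 13.9 and 15.1 FPKM in AOC3 and AOC3-LN and at 0.285 and 1.71 in AOC11 and AOC11-LN.

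Within the mice, 2 of the 24 genes were higher and 2 lower in AOC3-LN (median -0.02), and 1 was higher and 3 lower in AOC11-LN (median -0.47). Over all genes 2.11% were higher and 3.42% lower in AOC3-LN, and 4.97% higher and 3.14% lower in AOC11-LN. Lcn2, listed here among the partners, was at 65.1 FPKM in AOC3 and 3.50 in AOC3-LN, against 33.2 in AOC11 and 10.3 in AOC11-LN. It was lower in the lymph node line of both mice, while Mmp9 was lower in AOC3-LN only. Higher in AOC3-LN were Klk6 (2.63) and Klk8 (1.21). In AOC11-LN, Prss8, a membrane serine protease, was higher by 1.17, and the tight junction gene Cldn1, whose protein is known to promote activation of the Mmp2 proenzyme by Mmp14, had a difference of -1.40.

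Several partners were expressed well above the enzymes. Urokinase, Plau, which turns plasminogen into plasmin, an activator of metalloproteinases, was at 1266, 737, 988 and 612 FPKM in AOC3, AOC3-LN, AOC11 and AOC11-LN. Bsg, an inducer of metalloproteinases on the cell surface, was at 332 to 384 FPKM, Cd44, which docks Mmp9 and Mmp14, at 297 to 542, and Cd63, a Timp1 receptor, at 418 to 557. Furin, the protease that activates the Mmp14 proenzyme, was at 30.1, 28.2, 42.8 and 49.9 FPKM, a log2 difference of -0.59 (limma adjusted p = 0.199). Both AOC11 lines were higher, where 53.0% of expressed genes did not overlap between the mice. From the same list, Pcsk6 (13.6, 18.6, 23.2 and 14.1 FPKM) and Pcsk7 (6.64, 4.78, 6.51 and 5.34) overlapped. A link of Furin to the Mmp14 level was not tested. Plasminogen itself, Plg, was listed at 0 in every line, and Reck, a membrane inhibitor of metalloproteinases, was listed at 0 in the AOC3 lines and was at most 0.144 FPKM in AOC11-LN.

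Of 29 ADAM and ADAMTS genes, relatives with disintegrin domains of which some are Timp3 targets, 12 passed the filter. Between the mice 1 of the 12 was past the threshold in each direction, beside 5.10% higher and 6.00% lower over all genes. Adam8 was at 1.84 and 0.755 FPKM in AOC3 and AOC3-LN and at 16.2 and 18.2 in AOC11 and AOC11-LN, a difference of -2.97 (limma adjusted p = 0.0552), and Adamts8 had a difference of 1.22 (limma adjusted p = 0.170). The list median was -0.12. In AOC3-LN 1 gene was lower, Adamts4 (-1.20), where 3.42% of all genes were lower. In AOC11-LN, where 4.97% of all genes were higher and 3.14% lower, Adamts9 was higher (1.30) and Adamts1 (-1.95) and Adam12 (-1.12) were lower.

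Of 40 matrix substrates 18 passed the filter, and the fibrillar collagen genes Col1a1, Col1a2 and Col3a1 were among the 22 that did not. Between the mice 5 of the 18 were past the threshold higher in the AOC3 lines (5.10% of all genes), among them the basement membrane genes Col4a1 (1.02) and Lamb1 (1.01) and the matrix glycoproteins Tnc (1.42) and Fn1 (1.13). The 2 lower ones (6.00% of all genes) were Col4a5 (-1.14) and Hspg2 (-1.07). The limma adjusted p was 0.115 for Tnc and 0.126 for Col4a1. The list median was 0.45 against 0.01 over all genes. In AOC3-LN, Col17a1 (1.48) and Spp1 (1.07) were higher and Vcan (-1.17) and Sparc (-1.04) lower, with a median of -0.15, beside 2.11% higher and 3.42% lower over all genes. In AOC11-LN, Col18a1 (1.26) was higher and Lama3 (-1.26) and Col4a2 (-1.06) lower, with a median of -0.45, beside 4.97% and 3.14%.

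Timp1 and Mmp9 had the largest ranges of the 10 genes over the 4 lines, 3.20 and 2.81 on the normalized log2 scale. The protein-coding genes most like them were found by the root mean square difference of line-centred log2 values over the 4 lines, among 11374 genes. Nearest to Timp1 were Morn4 (0.14), Tbc1d9 (0.19) and Asdurf (0.20). Morn4 was at 6.66, 11.0, 0.0914 and 0.398 FPKM in AOC3, AOC3-LN, AOC11 and AOC11-LN, and Tbc1d9 at 3.76, 7.91, 0.226 and 0.209. Asdurf was at 3.59, 4.92, 3.1e-07 and 0.00426 FPKM in the same order. In the AOC11 lines these genes were under 1 FPKM, while Timp1 was at 18.7 and 19.9. Adding 1 to FPKM shrinks log2 differences at such low levels, so the match does not extend to fold differences in FPKM. Nearest to Mmp9 were Ltbp2 (0.30), Camk2b (0.33) and Slc4a4 (0.33). Ltbp2, a matrix protein of the latent TGF-beta binding family, was at 19.7, 1.24, 4.82 and 9.99 FPKM. With 4 points a match of this kind is a description of these libraries.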

How the data were processed

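TRIzol RNA of each cultured line was made into a stranded mRNA library and sequenced from both ends. After trimming with Trim Galore and mapping to mm10 with TopHat2, the authors estimated FPKM with Cufflinks against GENCODE M21 under its default settings (tool versions are not given in the sources used here). The deposited FPKM values are neither log2-transformed nor quantile-normalized, although the methods name these steps. Here FPKM plus 1 was taken to log2 and quantile-normalized across the whole table of 34721 entries. Entries with 1 FPKM or more in at least 1 line were kept (14165).

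Lines were compared by log2 differences, counted past 1 in either direction. limma 3.58.1 in R 4.3.3 (lmFit, eBayes with trend, Benjamini-Hochberg adjustment over all genes) compared the AOC3 lines with the AOC11 lines, with the 2 lines of each mouse taken as its replicates, and was tested on simulated data. FPKM values hold no counts: low values of 9528 genes with 1 transcript over 800 bases were, in 70.5% to 73.1% of cases, whole numbers of a shared unit to within 0.1, against 20% by chance, which gave the fragment estimates. Fragment numbers of genes with several transcripts are rough. Upstream sequences were taken from RefSeq (GRCm38.p6) and positions from GENCODE M21.

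The 10 genes and the gene lists were chosen with earlier results of these data known. All 10 were named, with, from each list, the genes with the largest differences and those needed to describe a small count. Partners named for their level (Plau, Bsg, Cd44, Cd63, Furin, Pcsk6, Pcsk7, Plg and Reck), Timp4 and the other genes of low level were chosen after their values were seen. The level of Mmp7 and the protein sequences were not analysed here, and some list genes that are in the counts are not reported here by name. Alternatives changed the pseudocount, scaling, filter and gene types, added the site as a block, or left out 1 line.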

Additional observations from a re-analysis of the deposited data

Results flagged for a closer look

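Mmp9 had opposite differences between the lymph node and the primary line in the 2 mice. The difference was -2.81 on the log2 scale in AOC3-LN against AOC3 (5.60 against 46.8 FPKM) and 0.57 in AOC11-LN against AOC11 (16.9 against 11.1 FPKM), so the 2 log2 differences were 3.38 apart. With 1 library per line the contrast between the mice was not tested.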

How the results depend on the processing

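Of the log2 differences of single genes recomputed under the alternatives, 103 stayed on their side of the fold threshold and 8 came to lie past it. The 103 include the settings without a filter and with genes at 5 FPKM or more. Those settings leave each log2 difference as it was, so they could not move a gene. No value past the threshold changed its sign, but Mmp9 between the mice, at 0.36 with all lines, took opposite signs without AOC3 (-1.04) and without AOC3-LN (1.77). With a pseudocount of 0.1 FPKM, 2 of the 6 genes were past the threshold between the mice (Timp1 and Mmp15), 2 in AOC3-LN (Mmp9 and Mmp10) and 1 in AOC11-LN (Mmp15). Mmp15 in AOC11-LN was also the 1 gene past it without quantile normalization and with scaling to a common median. The smaller pseudocount gives low values more weight by its construction, and for scaling the cause was not tested. Leaving out 1 line in turn gave 1 to 2 genes past the threshold between the mice.

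limma called 1 of these genes, Timp1, with genes at 5 FPKM or more and with protein-coding genes only. Fewer genes were tested there, and the unadjusted limma p of Timp1 was also lower, at 0.00019 and 6.16e-05 against 0.000258. Under the other alternatives that kept all lines limma called 0 of these genes, and 1 or 2 had an unadjusted p under 0.05. Over all genes limma called 29, against 256 with protein-coding genes only, 50 at 5 FPKM or more and 0 without a filter or without any 1 line, where 4029 and 1124 to 2926 genes had an unadjusted p under 0.05. With 1 line left out, the lone line of its mouse is assumed to vary like the other pair. With the site as a block, which pairs the lines of the 2 mice by tumor site, limma called 31 genes and Timp1 was not among them (adjusted p = 0.0528). The same model could test the lymph node lines against the primary lines over both mice, and that test was not run. The genes past the fold threshold with a pseudocount of 0.1 numbered 2627 between the mice, 1443 in AOC3-LN and 2074 in AOC11-LN, against 1573, 783 and 1149. Levels under 1 FPKM rest on few fragments, 5 to 38 for Mmp3 and Mmp13, and counting intervals were computed only for genes with 1 transcript.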
